A study of Mus musculus with 4 samples.

Results

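Integrins and laminins were described as 2 gene families that meet at the cell surface. Members were taken by symbol: the integrin alpha genes (Itga followed by a number or a letter), the integrin beta genes (Itgb followed by a number) and the laminin chain genes (Lama, Lamb or Lamc followed by a number). On the array 34 such genes were read, of 18193 named genes in all, by 73 of the 45101 probe sets. They were 16 alpha integrins, 8 beta integrins and 10 laminin chains. Itga11 and Itgad were not analysed here.

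Laminins are cross-shaped proteins of the basement membrane, the sheet of matrix that wraps muscle fibres, nerves, vessels and epithelia. Each is built from 1 alpha, 1 beta and 1 gamma chain. Integrins are cell-surface receptors, each made of 1 alpha and 1 beta subunit, that bind laminin, fibronectin, collagen or other cells on the outside and join the actin cytoskeleton on the inside. In muscle, the pair of Itga7 and Itgb1 binds the laminin that carries the Lama2 chain, and loss of Lama2 causes a congenital muscular dystrophy. In the embryo, integrins guide myoblast migration, and adhesion through Itga4 to Vcam1 has been studied in the making of secondary muscle fibres.

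RNA came from muscle dissected at E13.5 (embryonic day), from the limb or the back of BALB/c embryos. One Affymetrix array was hybridised per group: wild-type (WT) limb, Myod null (MyoD-null) limb, WT back and Myf5 null back. By their labels the mutants lack a transcription factor that commits cells to the muscle lineage, MyoD (gene Myod1) or Myf5, and both are on the BALB/c background. With 1 array per group there is no replicate error and hence no p-value, and every difference is between single arrays, whose number limits the precision. The sources used here do not say whether embryos were pooled for an array.

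Signals below are intensities, each array scaled to a trimmed mean of 500. A signal under 100, the floor, is printed as measured but was treated as having no level, so a ratio against it is written "at least N-fold". A gene was counted as different where it was at least 2-fold apart and its brighter array reached 200. The signals of different genes come from different probes and are not compared with each other. Within a gene, probe sets also differ: over genes with several measured probe sets, the median SD of their log2 ratios was 0.40 in the limb pair, 0.38 in the back pair and 0.40 between the WT arrays.

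Facts of the whole series bear on these values. Myod1 had the signals 1438 (WT limb) and 688 (MyoD-null limb), while Myf5 was 508 in WT back and 583 in the Myf5 null back array. Since Myf5 was not lower there, it is called the Myf5-labelled back array throughout. Of 8 skeletal muscle markers, 7 were below their WT level in MyoD-null limb and all 8 in the Myf5-labelled back array. The list includes Myod1 itself, which is 1 of the 2 markers counted as lower in MyoD-null limb. The summed signal of the 8 markers was 65642 (WT limb), 42130 (MyoD-null limb), 122571 (WT back) and 85196 (Myf5-labelled back). Markers of cartilage, epithelium, endothelium and blood cells were also read in every array, so the pieces held several tissues. None of the endothelial, smooth muscle, Schwann cell or neuronal markers was 2-fold apart in the limb pair, and in the back pair only Stmn2, a neuronal marker, was (-1.12). Of 6 cartilage markers, 5 were at least 2-fold lower in the Myf5-labelled back array, with sums of 4111 against 18482 in WT back. None of the 6 was 2-fold apart in the limb pair. Of 7 leukocyte markers, 2 were higher and 1 lower in the back pair, and 1 was higher in the limb pair. The platelet marker Gp1bb was higher in the back pair (1.08). In bulk tissue, fewer cells of a type and less RNA per cell cannot be told apart. The ratio of the 3 prime to the 5 prime signal, a measure of RNA and labelling quality, was 12.2 for Gapdh in WT limb, 9.46 in the Myf5-labelled back array, 8.06 in MyoD-null limb and 6.45 in WT back, and Actb gave the same order (6.88, 4.28, 3.86 and 3.20). The median signal was 153 in WT limb and 166 in the Myf5-labelled back array, above MyoD-null limb (125) and WT back (134).

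Of the 34 members, 26 reached 200 in at least 1 array, 8 stayed under 200 in all arrays, and 1 of these, Itgam, stayed under the floor in all arrays. In all, 10 members were 2-fold or more apart in 1 or more of the 3 comparisons and 24 in none. No share over all genes is given for this combined count, so it does not show whether the members stand out. The shares over all genes are given below by comparison. Among the 26 that reached 200, the highest array was at least 2-fold above the lowest in 13, against 29.7% of the 12426 genes that reached 200. It was less than 1.5-fold above the lowest in 6, or 23.1%, against 42.0% of those genes.

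**Figure D1:**
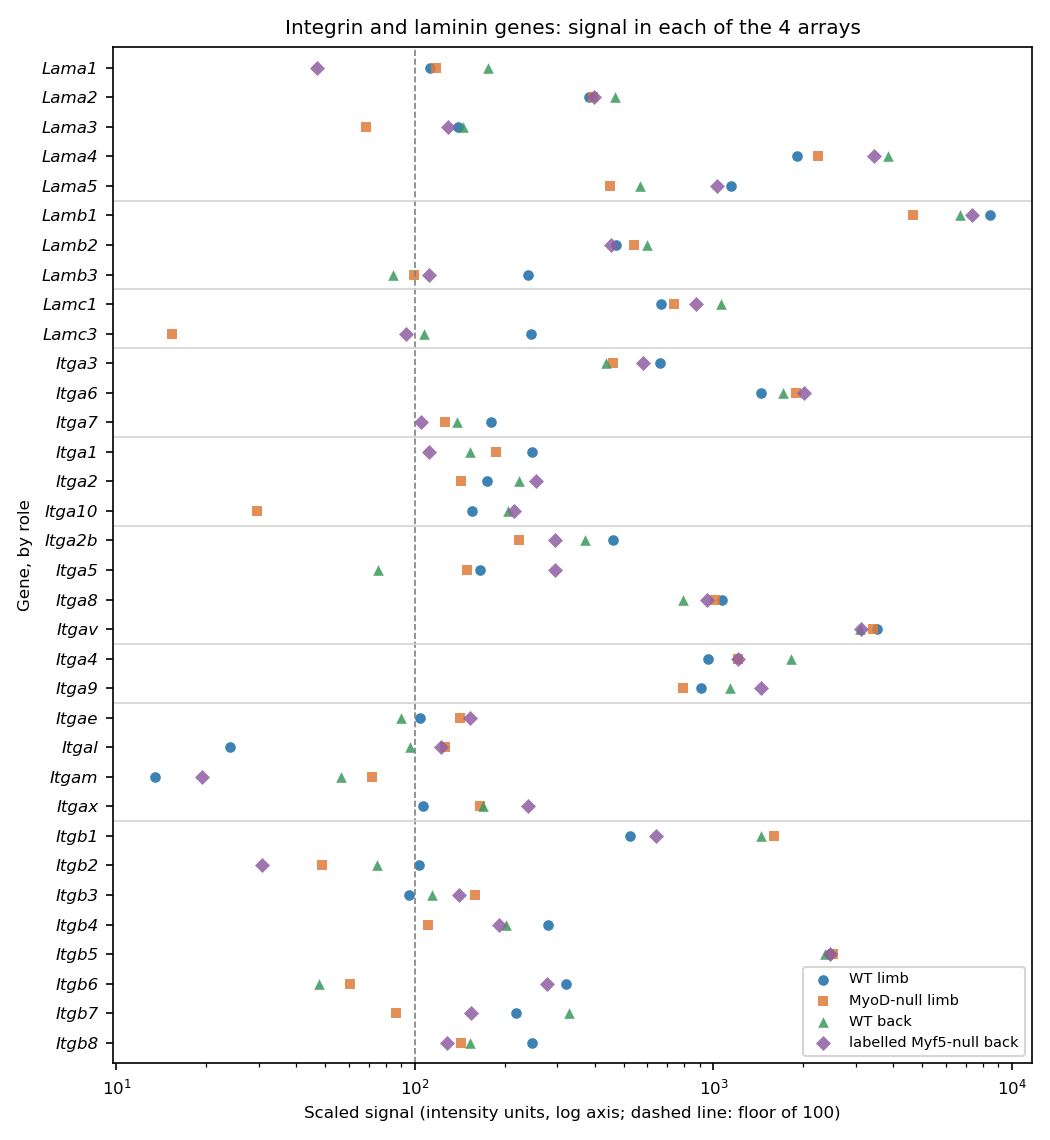
Scaled signal (log axis, intensity units) of each integrin and laminin gene in the 4 arrays, 1 point per array, ordered by role, with the floor of 100 as a dashed line. Itgb5 and Itgav points nearly coincide, while Itgb1 splits into 527 and 643 against 1446 and 1599, and Itgb6 into 48 and 61 against 277 and 321.

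MyoD-null limb was set against WT limb to ask how these adhesion genes differ where MyoD is missing by the label. The beta subunit shared by most laminin and fibronectin receptors, Itgb1, was 3.03-fold higher in the mutant array, while 7 members were lower by 2-fold or more, the laminin chains Lama5, Lamb3 and Lamc3 and the integrins Itgb4, Itgb6, Itgb7 and Itga2b. With these, 8 of 33 measured members (24.2%) differed at least 2-fold, beside 7.5% of all measured genes, of which 7 (21.2%) were lower, beside 5.19%, and 1 (3.03%) higher, beside 2.3%. The members' median log2 ratio was -0.15, beside -0.04 over all measured genes, and 18 of the 33 lay within 0.5 of 0. Of the 8 calls, 4 rest on a MyoD-null signal under the floor. Most were dim genes: of members with a mean signal under 500 over the 4 arrays, 6 of 20 were counted as lower, beside 9.41% of genes of that class. Of 13 brighter members, 1 was higher and 1 lower, beside 1.70% of brighter genes in either direction.

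Under some other settings this count was smaller. With a floor of 200 it was 3 of 22 measured members, beside 293 of 11344 measured genes. With a pseudocount of 100 it was 4 of 33, beside 495 of 14496. As a median over probe sets it was 4 of 31, beside 792 of 14038. Without shared-probe probe sets it was 4 of 28, beside 1042 of 12795. The split of all calls depends on the scaling: 30.7% were higher in MyoD-null limb, but 45.5% after quantile normalization and 47.2% after loess. Of the members, 1 was higher and 6 lower after quantile normalization, and 1 higher and 5 lower after loess.

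Promoters are shown for 4 of the members at least 2-fold apart in this pair, because MyoD and Myf5 bind the E-box, CANNTG. The letters are the 250 bases before the RefSeq start site (GRCm38.p6), 5 prime to 3 prime on the gene's strand, with each CANNTG in capitals.
Itgb1 (chr8:128685404-128685653, plus strand): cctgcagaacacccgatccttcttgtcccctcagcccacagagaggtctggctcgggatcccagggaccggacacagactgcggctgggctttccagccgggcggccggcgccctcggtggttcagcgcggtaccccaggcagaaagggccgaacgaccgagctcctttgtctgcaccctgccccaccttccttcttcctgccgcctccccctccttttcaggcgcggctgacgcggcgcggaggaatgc
Lama5 (chr2:180225860-180226109, minus strand): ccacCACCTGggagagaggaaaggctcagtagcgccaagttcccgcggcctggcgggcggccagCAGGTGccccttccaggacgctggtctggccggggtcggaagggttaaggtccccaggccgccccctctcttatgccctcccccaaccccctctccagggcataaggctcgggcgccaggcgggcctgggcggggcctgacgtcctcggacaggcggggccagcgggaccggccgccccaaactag
Lamb3 (chr1:193301744-193301993, plus strand): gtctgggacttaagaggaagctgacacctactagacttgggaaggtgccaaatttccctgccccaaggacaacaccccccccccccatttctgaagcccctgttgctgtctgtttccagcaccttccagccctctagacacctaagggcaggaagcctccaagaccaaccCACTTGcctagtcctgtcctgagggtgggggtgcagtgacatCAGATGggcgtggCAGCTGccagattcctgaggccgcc
Itgb7 (chr15:102231936-102232185, minus strand): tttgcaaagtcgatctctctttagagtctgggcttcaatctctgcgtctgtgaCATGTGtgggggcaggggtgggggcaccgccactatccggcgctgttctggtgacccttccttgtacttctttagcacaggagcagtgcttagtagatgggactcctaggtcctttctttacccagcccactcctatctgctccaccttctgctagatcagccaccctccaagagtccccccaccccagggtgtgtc

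The E-box reads the same on both strands, so 1 scan covers both, and CAGCTG is 1 of its forms. Lamb3 held 3 matches, 1 of them CAGCTG and the nearest beginning 25 bases before the start, Lama5 held 2, Itgb7 held 1, and Itgb1 held 0 in this window. The table of starts used here gave 25 promoters for 22 of the members. CANNTG was in 20 of these 25 (80.0%), beside 66.2% of all 32851 promoters, and CAGCTG in 6 (24.0%), beside 13.0%. Such matches describe the letters only. The table also holds a second Lamb3 start, further downstream, whose window held 1 match and is not printed. Windows of the other members 2-fold apart in this pair are not printed either. Itga2b held 2 matches, 1 of them CAGCTG, and Itgb6 held 3 in each of its windows. Itgb4 and Lamc3 had no window.

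Among the laminin alpha chains, Lama5, the chain of embryonic and epithelial basement membranes and of the synaptic basal lamina, had the signals 1141 (WT limb), 451 (MyoD-null limb), 569 (WT back) and 1026 (Myf5-labelled back). The MyoD-null limb array was thus the lowest and WT limb the highest, with a log2 ratio of -1.34. A second probe set of Lama5 followed less far, at 386 against 462 (-0.26). The chains of the muscle fibre and vessel basement membranes did not reach 2-fold: Lama2 was 396 in MyoD-null limb and 383 in WT limb (0.05). Lama4, found around vessels, nerves and embryonic muscle, was 2232 against 1909 (0.23). The other alpha chains were dim, Lama1 at 118 against 112 and Lama3 at 69 against 140.

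Of the beta chains, Lamb1, the partner in most embryonic laminins, was 4655 in MyoD-null limb and 8457 in WT limb (-0.86), short of 2-fold. Its main probe set has a name that marks shared probes, and another probe set of Lamb1 gave 546 against 538 (0.02). The remaining 2 probe sets of Lamb1, both under the floor in WT limb, read 153 and 107 in MyoD-null limb, so the lower value was seen in 1 of 4 probe sets. Lamb2, the beta chain of the neuromuscular synapse, was 540 against 473 (0.19). Lamb3, a chain of the epidermal laminin, was 239 (WT limb), 99 (MyoD-null limb), 85 (WT back) and 111 (Myf5-labelled back). WT limb alone stood clear of the floor, which makes the MyoD-null value at least 2.39-fold lower.

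The gamma chain Lamc1, part of nearly all muscle laminins, was 739 in MyoD-null limb against 666 in WT limb (0.15). Lamc3 was 244 (WT limb), 15 (MyoD-null limb), 107 (WT back) and 93 (Myf5-labelled back). As with Lamb3, WT limb was the only array above 200, and MyoD-null limb was at least 2.44-fold lower. Its other probe set, at 119 against 145, had the same sign (-0.28). Lama2, Lama4, Lamb2 and Lamc1 thus had log2 ratios between 0.05 and 0.23 and Lamb1 -0.86, and the 3 chains counted as different were Lama5, Lamb3 and Lamc3.

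Itgb1 was 527 (WT limb), 1599 (MyoD-null limb), 1446 (WT back) and 643 (Myf5-labelled back). The 2 low arrays, WT limb and the one labelled Myf5-null back, belong to different tissues and genotypes, and they are also the 2 arrays with the highest 3 prime to 5 prime ratios of Gapdh and Actb; the part of labelling quality in this difference was not tested. The MyoD-null over WT limb log2 ratio was 1.60, and a second probe set of Itgb1 gave 926 against 543 (0.77). Another, whose name marks shared probes, went the other way at 183 against 238 (-0.38). The main probe set also has a name for probes shared between transcripts, and without such probe sets the ratio of Itgb1 was 0.77, under 2-fold. The other 3 probe sets of Itgb1 were under the floor in both limb arrays, and the median over all 6 turned the sign, to -0.19.

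Alpha partners of Itgb1 showed smaller ratios. Itga7, the main laminin receptor subunit of muscle fibres, was dim, at 126 in MyoD-null limb and 179 in WT limb (-0.51), and was read by 1 probe set. The part of muscle content, lower by the marker list given above, was not tested for Itga7. Itga6, a laminin receptor of myoblasts, nerve and epithelium, was 1887 against 1443 (0.39). Its second probe set gave 572 against 214, or 1.42, which is past 2-fold where the main probe set is not. Itga3, a laminin receptor of epithelia, was 460 against 664 (-0.53).

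The fibronectin and other RGD receptors (named for the peptide they bind) were mostly level. Itgav was 3437 in MyoD-null limb and 3523 in WT limb (-0.04), and its beta partner Itgb5 was 2509 against 2464 (0.03). Dim probe sets of Itgav went both ways, 1 at 196 against 89 (0.97) and another under the floor against 120 (-0.27). The main probe set of Itgb5 has a name that marks shared probes. Other probe sets of Itgb5 ranged from 0.47 to -0.70. Itga8, a receptor for nephronectin, was 1013 against 1069 (-0.08), and Itga5, the classical fibronectin receptor subunit, was 149 against 166. Itga2b, the platelet integrin, was 459 (WT limb), 223 (MyoD-null limb), 372 (WT back) and 295 (Myf5-labelled back). MyoD-null limb was the lowest array for Itga2b and WT limb the highest, with a ratio of -1.04 in this pair. The platelet marker Pf4 was 1385 against 1604 (-0.21), and of the 3 measured genes of the platelet list 1 was above and 2 below 0. That list summed to 1972 (WT limb) and 1800 (MyoD-null limb), within a range of 1800 to 2634 over the arrays, with Gp9 under the floor in all of them.

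Itga4, which binds Vcam1 and fibronectin, was 1212 in MyoD-null limb and 955 in WT limb (0.34), with Vcam1 at 3417 against 4595 (-0.43). Itga9, a tenascin receptor subunit, was 790 against 907 (-0.20). Of the collagen receptor subunits, Itga1 was 187 against 247 (-0.40), Itga2 was 142 against 174 (-0.29), and Itga10 was under the floor against 156, at least 1.56-fold lower; none was counted as different. The leukocyte alpha integrins were near the floor: Itgae, Itgal and Itgax were between 126 and 166 in MyoD-null limb. Against WT limb their log2 ratios were above 0, at 0.45, 0.33 and 0.64, and none was counted as different. A second probe set of Itgae went the other way, under the floor against 152 (-0.61). Itgb2, the beta partner of Itgal, Itgam and Itgax, was 103 in WT limb and under the floor in the other arrays.

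The beta integrins of epithelia and lymphocytes were lower. Itgb4, the hemidesmosome subunit that pairs with Itga6, was 280 (WT limb), 111 (MyoD-null limb), 202 (WT back) and 192 (Myf5-labelled back), a log2 ratio of -1.34 in the limb pair. Itgb6, an epithelial partner of Itgav that activates TGF-beta, was 321 (WT limb), 61 (MyoD-null limb), 48 (WT back) and 277 (Myf5-labelled back). Its main probe set has the same kind of name, as do those of Itgb4 and Lamb3, and its other probe set was under the floor in all 4 arrays. Only the 2 arrays with the highest 3 prime to 5 prime ratios had an Itgb6 signal above the floor, and the part of labelling was not tested. MyoD-null limb was at least 3.21-fold below WT limb. Itgb7, which pairs with Itga4 or Itgae on lymphocytes, was 218 (WT limb), 86 (MyoD-null limb), 329 (WT back) and 155 (Myf5-labelled back), so MyoD-null limb was at least 2.18-fold lower. Itgb8, another partner of Itgav, was 143 against 246 (-0.78), and Itgb3 160 against 95.

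Epithelial markers were read beside these genes. Of 7 such markers, 5 were above 0 in MyoD-null limb and none was at least 2-fold lower. Their summed signal was 13598 in MyoD-null limb against 12120 in WT limb, within a range of 6970 to 13598 over the arrays, and all 7 were at the floor or more in every array. Krt5, the keratin of basal epidermis, was 6046 against 5685 (0.09). The keratins Krt8 and Krt18 of simple epithelia had ratios of -0.74 and -0.75. Of the 7 leukocyte markers, 6 were measured in this pair, 5 of them below 0, with sums of 3314 in MyoD-null limb and 4350 in WT limb (range 3314 to 5883 over the arrays) and no marker under the floor in all arrays. The sixth, Ptprc, found on all leukocytes, went the other way at 202 in MyoD-null limb and under the floor in WT limb, at least 2.02-fold higher. The leukocyte alpha integrins Itgae, Itgal and Itgax also lay above 0 in their main probe sets, as given above. The part of leukocytes in the Itgb7 value was not tested.

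The back pair asked the same question of Myf5, with the genotype resting on the label. Itgb1 and Itgb7 were at least 2-fold lower in the Myf5-labelled back array than in WT back, and Itga5 and Itgb6 were at least 2-fold higher. These 4 of 32 measured members (12.5%) compare with 7.98% of all measured genes at 2-fold or more in either direction. The 2 higher and the 2 lower members are each 6.25%, beside 5.5% of genes higher and 2.48% lower. With a floor of 200 the count was 1 of 22 measured members, beside 274 of 11633 measured genes. As a median over probe sets it was 1 of 30, beside 866 of 14261. Without shared-probe probe sets it was 2 of 28, beside 1114 of 13000. Of all calls in this pair 68.9% were higher, but 50.3% after quantile normalization and 48.8% after loess, and the members stayed at 2 higher and 2 lower under both. The members' median log2 ratio was 0.04, beside 0.05 over all measured genes, and 24 of the 32 lay within 0.5 of 0. No laminin chain reached 2-fold. Of members with a mean signal under 500, 2 of 19 were higher and 1 lower, beside 14.4% of genes of that class in either direction. Of 13 brighter members, 1 was lower and 0 higher, beside 1.37% in either direction.

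For Itgb1 the values were 643 against 1446 (-1.17), with 619 against 1088 (-0.81) and 110 against 187 (-0.76) in further probe sets. Another probe set of Itgb1, near the floor gave 141 against 26 and so went the other way. Itgb7 was 155 against 329 (-1.09), which made it the only member at least 2-fold lower in both the limb and the back pair. Among all 13371 genes measured in both pairs, 32 were at least 2-fold lower in both. Leukocyte markers of the back pair went both ways, with 2 of 7 higher and 1 lower at 2-fold and sums of 5883 against 5823 in WT back. The leukocyte alpha integrins Itgae, Itgal and Itgax were above 0, at 0.62, 0.29 and 0.50, none counted as different. Itgb6, read at 277 against 48, was at least 2.77-fold higher in the Myf5-labelled back array.

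Itga5 was 166 (WT limb), 149 (MyoD-null limb), 75 (WT back) and 295 (Myf5-labelled back). The last array was the highest and WT back the only one under the floor, at least 2.95-fold apart. Of its other probe sets, 1 gave 240 against 134 (0.83) and another was under the floor against 108, the opposite direction. Fn1, the ligand of Itga5, was 12987 against 16715 (-0.36).

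The laminins of the back pair stayed closer together in their main probe sets. Lama5 was 1026 against 569 (0.85), with -0.47 in its second probe set, and Lama4 3450 against 3844 (-0.16). Lama2 was 399 against 467 (-0.23), Lamb2 453 against 598 (-0.40) and Lamc1 878 against 1059 (-0.27), each lower by less than the spread between probe sets except Lamb2. The second probe set of Lamc1 went the other way, at 282 against 191 (0.56). Lamb1 was 7347 against 6714 (0.13) in its main probe set. Its other probe sets went both ways, at 786 against 878 (-0.16), 107 against 210 (-0.98) and 306 against 213 (0.53). Lama1, the chain of the earliest basement membranes, was 47 against 175 and did not reach the brightness needed for a count.

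Among alpha subunits, Itga7 was 105 in the Myf5-labelled back array and 139 in WT back (-0.41). Itga4 was 1210 against 1825 (-0.59), and Itga9 was 1443 against 1132 (0.35), although a dim probe set of Itga9 went the other way, under the floor against 299. Itga6 was 2017 against 1707 (0.24), Itga3 579 against 437 (0.41) and Itgav 3130 against 3109 (0.01). Cartilage markers were far lower in this array, 5 of 6 at least 2-fold, with sums of 4111 against 18482 in WT back and none under the floor in all arrays (range 4111 to 19453). Itga10, the collagen receptor of cartilage cells, was 215 against 206 (0.06) and Itga8 949 against 794 (0.26).

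**Figure D2:**
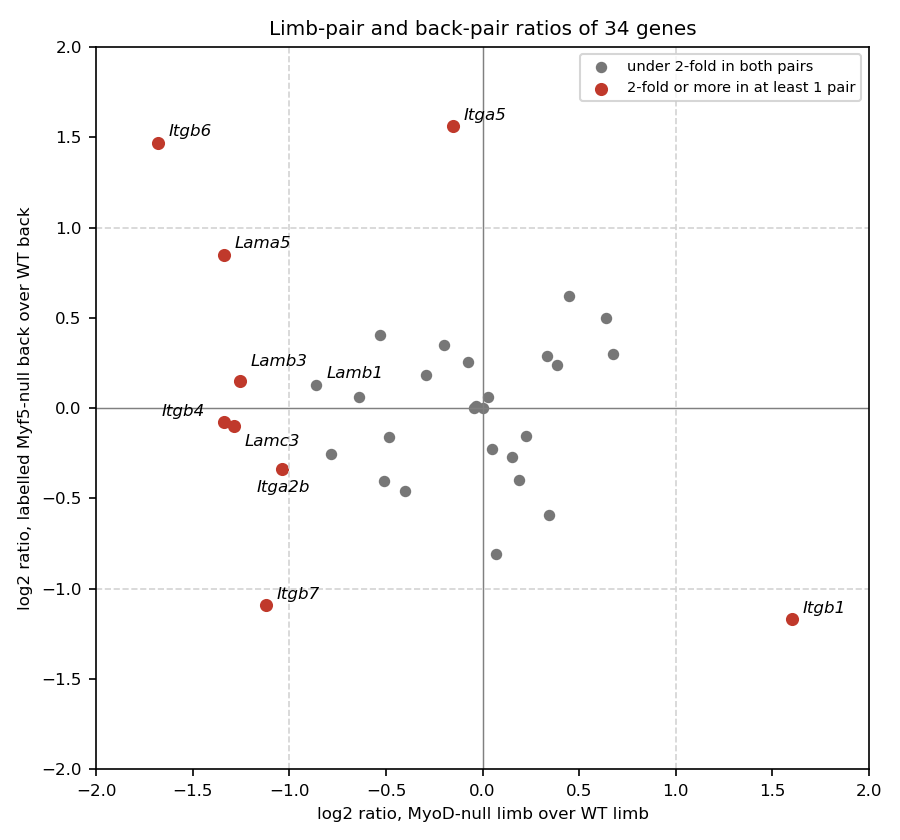
Each point is 1 of the 34 genes, placed by its log2 ratio of MyoD-null over WT limb (x axis) and of the Myf5-labelled back array over WT back (y axis), with dashed lines at 2-fold. Itgb1 (1.60 and -1.17) and Itgb6 (-1.68 and 1.47, both limited by the floor) lie in opposite corners, and Itgb7 is the gene below -1 on both axes.

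The limb and back pairs share no array, and their ratios were set side by side. Of 32 members measured in both pairs, 18 had opposite signs (56.2%), beside 57.9% of all genes measured in both. Both ratios were below 0 in 8 members and above 0 in 6. Itgb1 and Itgb6 were at least 2-fold apart in opposite directions, 2 of 32 (6.25%), beside 104 of 13371 genes (0.778%). For Lama5 the ratios were -1.34 and 0.85, and for Lamb1 -0.86 and 0.13. WT limb and the Myf5-labelled back array lay at the same end in Itgb1, Itgb6 and Lama5; they are the 2 arrays whose 3 prime to 5 prime ratios were highest, and the part of labelling was not tested.

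**Figure D3:**
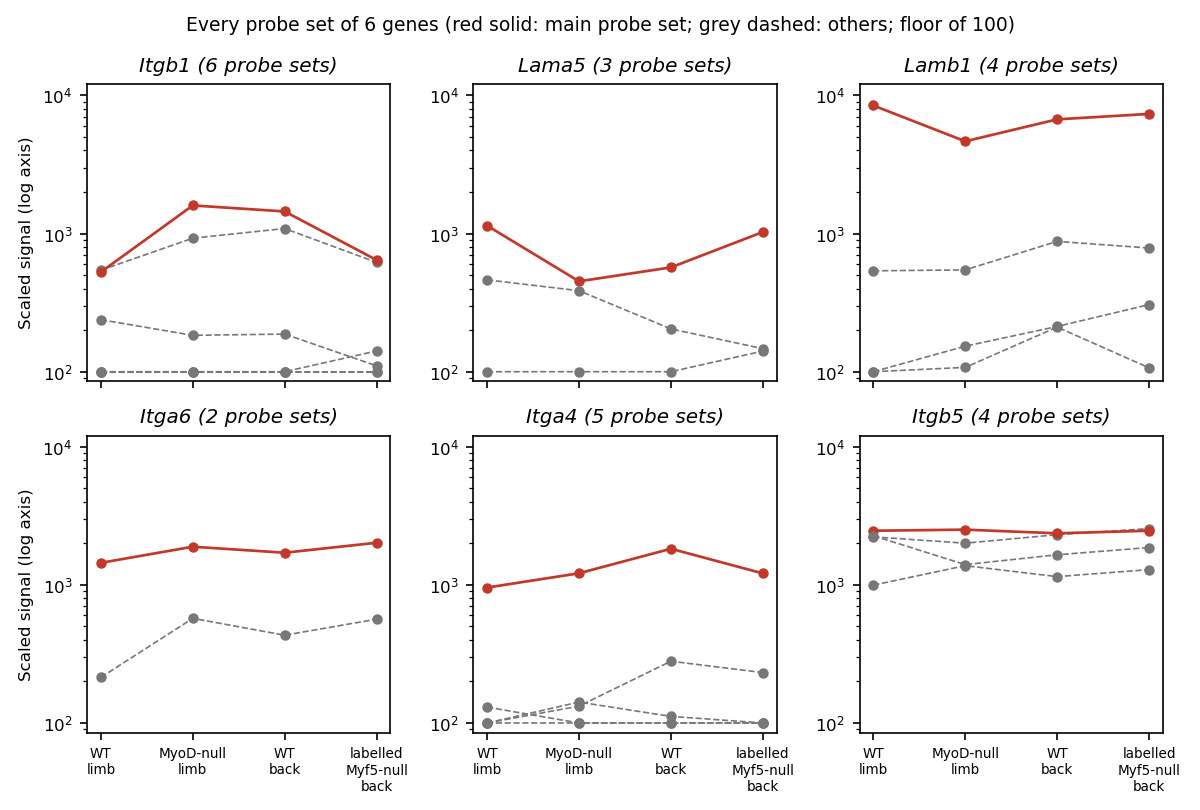
Scaled signal (log axis, values under 100 drawn at 100) of every probe set of 6 genes in the 4 arrays, with lines joining the values of 1 probe set. The 2 brightest probe sets of Itgb1 are both low in WT limb (527 and 543) and in the Myf5-labelled back array (643 and 619), the main probe set of Lamb1 drops to 4655 in MyoD-null limb while the next reads 546 against 538, and the main probe set of Itgb5 stays between 2360 and 2509.

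WT limb and WT back were compared to ask how the genes differ between muscle sites without a mutation. Of the 4 arrays, WT limb had the highest 3 prime to 5 prime ratios and WT back the lowest. They were 12.2 and 6.45 for Gapdh and 6.88 and 3.20 for Actb, and the part of labelling was not tested. Limb was higher in Lama5, Lamb3, Lamc3 and Itgb6, and back in Itgb1 and Lama4. These 6 of 32 measured members (18.8%) stand beside 8.8% of all measured genes, the 4 higher in limb (12.5%) beside 5.3%, and the 2 lower (6.25%) beside 3.5%. The members' median was 0.05, beside 0.04 over all measured genes. With a floor of 200 or as a median over probe sets the count was 3, and with a pseudocount of 100 it was 2. Over all genes, 774 were higher in limb and 511 lower, which became 245 and 259 with the floor of 200. The all-gene counts were 535 and 406 as the median and 408 and 273 with the pseudocount. Of members with a mean signal under 500, 3 of 19 were higher and 0 lower, beside 13.9% of genes of that class in either direction. Of 13 brighter members, 1 was higher and 2 lower, beside 3.56% in either direction.

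Lama4 was 1909 (WT limb), 2232 (MyoD-null limb), 3844 (WT back) and 3450 (Myf5-labelled back). Both back arrays lay above both limb arrays, with a WT log2 ratio of -1.01. Its dim second probe set had the same direction, at 159 in WT back and under the floor in WT limb. The ratio of Lama4 was under 2-fold in 4 of 7 alternatives, among them quantile normalization and loess.

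Lama5 was 1141 in limb against 569 in back and so just past 2-fold, and its second probe set gave 462 against 204 (1.18), past 2-fold as well. Lamb3 was at least 2.39-fold and Itgb6 at least 3.21-fold higher in limb, and Lamc3 was 244 against 107 (1.19). Each of these 4 genes was also counted as lower in the MyoD-null limb pair, and since both comparisons use the WT limb array this rests on that array in each case. Epithelial markers were higher in limb in the same comparison: 6 of 7 were above 0, with sums of 12120 in WT limb and 6970 in WT back, and Krt5 was 5685 against 2454 (1.21). The part of epithelium in these laminin and integrin values was not tested.

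Itgb1 was 527 in WT limb against 1446 in WT back (-1.46), with 543 against 1088, also just past 2-fold, in a second probe set. Another probe set of Itgb1 went the other way at 238 against 187, and the median over all 6 was 0.17. Itga4 was 955 against 1825 (-0.93), with 61 against 280 in a dimmer probe set. Another dim probe set of Itga4 went the other way, at 130 against 21 (0.38). Lamc1 was 666 against 1059 (-0.67). All 8 skeletal muscle markers were lower in WT limb too, 3 of them at least 2-fold, and the part of muscle content in the Itga4 and Lamc1 values was not tested. Itga7 went the other way, at 179 in limb against 139 in back (0.37), and Lama2 was 383 against 467 (-0.28). Lamb1 was 8457 against 6714 (0.33) in its main probe set. Its other probe sets were lower in limb, at 538 against 878 (-0.71), 88 against 210 (-1.07) and 31 against 213 (-1.09).

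**Figure D4:**
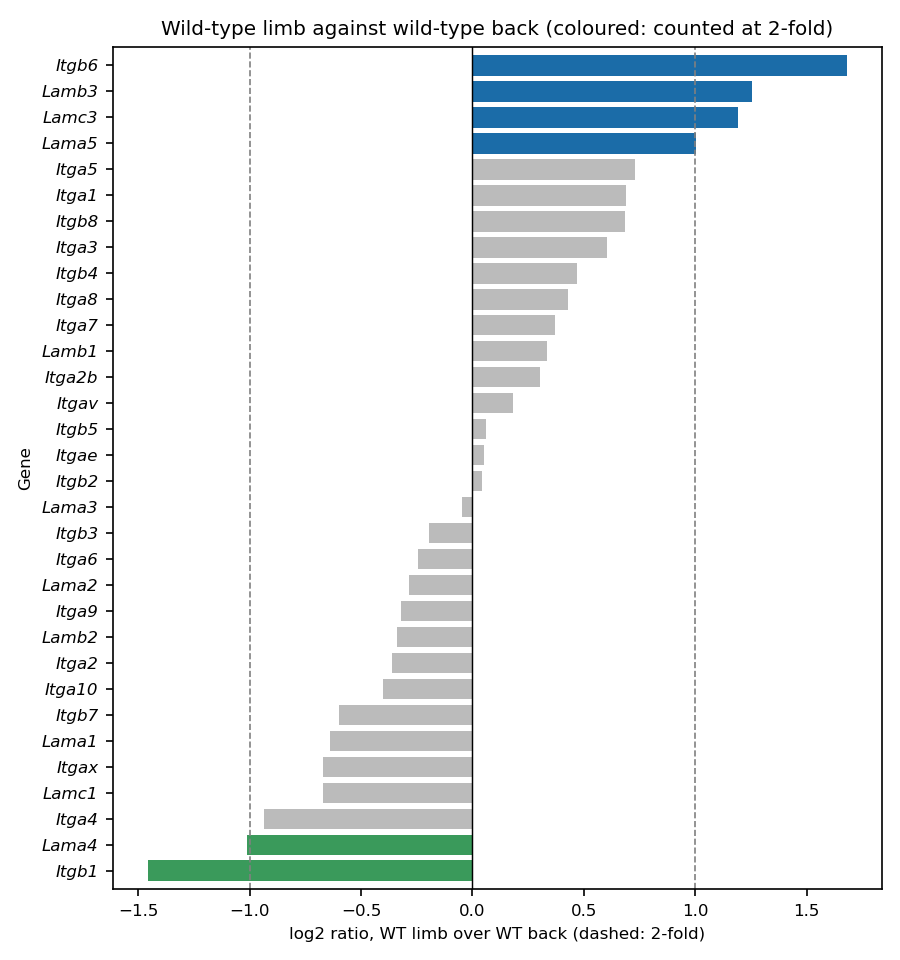
Bars give the log2 ratio of WT limb over WT back for the 32 members measured in this pair, with dashed lines at 2-fold and colour for genes counted at 2-fold. Itgb6, Lamb3, Lamc3 and Lama5 pass the 2-fold line toward limb, and Lama4 (-1.01) and Itgb1 (-1.46) pass toward back.

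Some members varied little over the 4 arrays in their main probe set. Itgb5 lay between 2360 and 2509, Itgav between 3109 and 3523, Lama2 between 383 and 467, Lamb2 between 453 and 598, Itga8 between 794 and 1069 and Itga6 between 1443 and 2017. Among the 26 members that reached 200 in at least 1 array, these are the 6 whose highest array was less than 1.5-fold above the lowest. The ranges are those of the main probe sets: the second probe set of Itga6 ran from 214 in WT limb to 572 in MyoD-null limb, and 1 of the others of Itgb5 from 1400 to 2267. A dim probe set of Itgav ran from 89 in WT limb to 196 in MyoD-null limb. The 6 genes include the main subunits of vitronectin binding, Itgav and Itgb5, and the Lama2 chain of the muscle basement membrane.

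Other genes of the same adhesion system were read from 3 lists. Of the matrix partners of integrins and laminins, 15 were measured in the limb pair, and none differed at least 2-fold. In the back pair 16 were measured and 2 were lower, Tnc, a tenascin of tendon and cartilage matrix, at 1750 against 3891 (-1.15), and nephronectin, Npnt, the Itga8 ligand, at 820 against 1651 (-1.01). Nid2, a nidogen that links laminin to collagen, was 259 (WT limb), 510 (MyoD-null limb), 630 (WT back) and 648 (Myf5-labelled back), lowest in WT limb by -1.29 against WT back. Col4a1 and Hspg2, core parts of the basement membrane, lay between -0.49 and 0.30 in both the limb and the back pair.

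Of 16 measured adaptors that tie integrins to actin, 2 were lower by 2-fold or more in MyoD-null limb. Lims2, a partner of integrin-linked kinase, was 109 against 359 (-1.72), and Fermt3, the kindlin of blood cells, was under the floor against 253, at least 2.53-fold lower. None of the 16 reached 2-fold in the back pair. Talin 1 (Tln1), kindlin 2 (Fermt2), vinculin (Vcl) and Ilk lay between -0.29 and 0.17 in both the limb and the back pair. Itgb1bp2, the muscle protein melusin that binds the Itgb1 tail, was 630 (WT limb), 571 (MyoD-null limb), 1771 (WT back) and 1079 (Myf5-labelled back). Both back arrays of Itgb1bp2 lay above both limb arrays (-1.49 for WT limb over WT back).

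Dystroglycan and the other laminin receptors did not differ at least 2-fold in the limb pair in any of 15 measured genes. Dag1, the dystroglycan that binds Lama2, was 5066 (WT limb), 4079 (MyoD-null limb), 4306 (WT back) and 4497 (Myf5-labelled back). Sgca, a sarcoglycan of striated muscle, was 245 in WT back and 110 in the Myf5-labelled back array (-1.16), the only gene of this list counted as lower there, and under the floor in both limb arrays. Sdc1, a syndecan of epithelia and condensing mesenchyme, was 8826 in WT limb against 3503 in WT back (1.33), and the epithelial list was higher in WT limb as well, as given above.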

How the data were processed

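The deposited values are linear intensities, which the authors computed with MAS5 per the submitters' processing notes (no version stated). The deposited columns had 2% trimmed means between 1477 and 1479, so they already shared a scale. For this report a factor per array brought that trimmed mean, taken without the 64 control probe sets, to 500. Values below the floor of 100 were raised to it before log2 ratios were formed (Python 3.11.15, pandas 2.3.3), which compresses the ratios of dim genes.

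The platform annotation gives 1 gene for 34945 probe sets, several for 932 (not used) and none for 9211. Where a gene had several probe sets, as 20 of the 34 members do, the one brightest on average (mean log2 over the 4 arrays) stood for it. A gene counted as measured in a comparison if either array reached the floor. Groups came from the sample titles. No test over samples is possible with 1 array in each. The ratio and count steps were tested on simulated data. All 4 signals are given for members at least 2-fold apart somewhere and for the main laminins and receptors of muscle, with up to 4 genes of each other list. Members and lists were chosen with earlier results of these data known. The 7 alternatives were quantile normalization, loess (span 0.3, statsmodels 0.14.6), floors of 50 and 200, a pseudocount of 100, the median over probe sets, and omitting probe sets with a suffix for shared probes. Promoters came from a RefSeq table (GRCm38.p6) by symbol. Marker lists of muscle, cartilage, leukocytes, platelets, endothelium, smooth muscle, epithelium, Schwann cells and neurons were read in the same way.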

Additional observations from a re-analysis of the deposited data

Results flagged for a closer look

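Itgb1 and Itgb6 went at least 2-fold in opposite directions in the limb pair and the back pair. For Itgb1 the limb-pair log2 ratio exceeded the back-pair ratio by 2.77. The Itgb6 difference was -3.15, which rests on signals under the floor in MyoD-null limb and in WT back. Neither difference was tested, since each group has 1 array. In both genes WT limb and the Myf5-labelled back array lay at the same end, and those arrays also had the highest 3 prime to 5 prime ratios, 12.2 and 9.46 for Gapdh against 8.06 and 6.45.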

How the results depend on the processing

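Over all genes, the number at least 2-fold apart dropped from 1087 to 293 with a floor of 200 and to 495 with a pseudocount of 100 in the limb pair. In the back pair it dropped from 1172 to 274 and 602, and for WT limb against WT back from 1285 to 504 and 681. The members' limb-pair count of 8 became 3 with the 200 floor and 4 with a pseudocount of 100, as the probe-set median, or without shared-probe probe sets. Their back-pair count of 4 became 3 with a pseudocount of 100, 1 with the 200 floor, 1 as the probe-set median and 2 without shared-probe probe sets. The WT count of 6 became 3 with the 200 floor, 2 with a pseudocount of 100 and 3 as the probe-set median. A higher floor raises the dim side of a ratio and so lowers it by construction. The 2% trimmed mean and the other scalings gave different splits of all calls: 30.7% were higher in MyoD-null limb, against 45.5% after quantile normalization and 47.2% after loess, and 68.9% in the back pair, against 50.3% and 48.8%. With the floor of 200 those shares were 38.9% and 55.1%, and 48.6% for WT limb over WT back, against 60.2%. As a median over its 6 probe sets, Itgb1 reversed to -0.19 in the limb pair and to 0.17 for WT limb over WT back. None of the 18 calls of single members held under all of the alternatives run for it. The members' medians were near 0 throughout. They lay between -0.19 and -0.04 under the alternatives in the limb pair, and changed sign in the back pair and in the WT comparison. No paired analysis was possible because each group has 1 array.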
